A study of Mus musculus with 36 samples.

Results

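The nuclear-encoded subunits of the mitochondrial respiratory chain were followed across 12 groups of mouse RNA-seq libraries. A gene counted as a member when the count tables called it protein coding and its symbol began with Nduf, 1 of the letters a, b, c, s or v and a digit, was Sdha, Sdhb, Sdhc or Sdhd, or began with Uqcr, with Cox and a digit from 4 to 8, or with Atp5. The rule found 85 of the 46078 genes listed, and the symbol also set the complex. Complex I had 37 members, complex II 4, complex III 9, complex IV 18 and complex V 17. A count was present for 82 of them in at least 1 library, and 79 were abundant enough to be tested in the cancer cells, 79 in the macrophages and 80 when the cell types were compared. Cox7b2, Cox8c and a second gene ID with the symbol Uqcrc1 had no count, and Cox8b and Cox6b2 had 1 and 5 counts over all 36 libraries.

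The chain passes electrons from NADH (complex I) or succinate (complex II) through complex III to oxygen at complex IV, and pumps protons across the inner mitochondrial membrane as it does so. Complex V, the ATP synthase, lets the protons return and makes ATP. Apart from complex II, each complex joins subunits encoded in mitochondrial DNA with a larger number encoded in the nucleus, and several nuclear subunits exist as alternative isoforms used in particular tissues or at low oxygen.

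The cancer cells were RM-1-BM, a mouse prostate cancer line, transduced either with an empty vector or with the F133V mutant of SPOP, the substrate receptor of a cullin ubiquitin ligase. Each was grown alone or in a transwell with RAW264.7 cells, a mouse macrophage line, and received DMSO (vehicle) or olaparib, an inhibitor of the DNA repair enzyme PARP, which made 8 cancer cell groups. The macrophages of the cocultures made 4 more groups, beside vector or F133V cells and with DMSO or olaparib, so that there were 3 libraries in each of 12 groups. The dose and duration of olaparib were not given in the sources used here, and the labels describe 1 transduced line per genotype and no macrophages grown alone. Macrophages beside F133V cells carry a genotype tag of SPOP F133V in the DMSO group and of wild type in the olaparib group, and the titles of the 3 vector partner libraries with olaparib name no partner, so the group tag was used for all. Nothing in the labels tells whether libraries within a group are separate cultures, and the p-values rest on the spread among those libraries alone, which may be technical.

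Libraries held 30292309 to 43062440 counts in genes. Levels are CPM, counts relative to the library's total, after scaling by the trimmed mean of M values (TMM), cancer cells and macrophages being scaled apart, and differences are log2 fold changes from edgeR's quasi-likelihood test with its standard error (SE) and Benjamini-Hochberg adjusted p. A change was called at an adjusted p under 0.05. The 12 macrophage markers summed to 11457 to 13536 CPM in the macrophage libraries with none at 0, and to 10.7 to 23.3 CPM in the cancer cell libraries with 0 to 3 at 0. The 10 cancer cell markers summed to 1728 to 10204 CPM in cancer cells and to 151 to 286 CPM in macrophages. Among them the epithelial genes Epcam and Cdh1 were near 0 in the cancer cells, their highest group means being 0.362 and 0.069 CPM. Small structural RNAs (snRNA, scaRNA, ribozyme and misc_RNA genes) averaged 67.0 CPM in vector cells alone with DMSO, 369.8 in F133V cells alone, 409 in F133V cells in coculture and 100.1 in the latter with olaparib.

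All 5 complexes were expressed in both cell types, and within a complex the members differed widely. Levels between genes are compared here only as CPM per kilobase of the principal transcript. In vector cells alone with DMSO the median member stood at 43.3 CPM per kilobase in complex I, 57.3 in complex II, 81.7 in complex III, 99.8 in complex IV and 105 in complex V. The highest was Atp5b, the catalytic beta subunit of the ATP synthase, at 456 ± 7.01 CPM per kilobase (SD, n = 3). It was followed by Cox8a (374 ± 11.0), Cox4i1 (334 ± 3.46), the ATP synthase c-subunit gene Atp5g3 (276 ± 3.07) and the alpha subunit Atp5a1 (226 ± 4.13), neighbours in that order being apart by more than their SDs. Farther down, Cox6a1 (185 ± 6.27) and Uqcrh (184 ± 3.09), next to each other in the order, did not differ beyond their spread. Among the lowest were several alternative isoforms: Cox6a2, the muscle form of subunit 6a, was at 10.4 ± 0.953 CPM per kilobase, Ndufa4l2 at 2.31 ± 0.181, Cox7a1 at 1.14 ± 0.261 and Cox4i2 at 0.023 ± 0.02. Other members lay there too, among them Ndufb4 (9.77 ± 0.953), Atp5sl (4.90 ± 0.173), Atp5s (3.40 ± 0.292) and Ndufb2 (1.59 ± 0.051). In macrophages with a vector partner and DMSO, Cox4i1 was highest (395 ± 3.69), then Atp5b (359.9 ± 4.43) and Uqcrh (317 ± 7.30). The per-kilobase values of Ndufb2 and Atp5g1 rest on principal transcripts of 4371 and 4715 bases, against a median of 809 over the members, and are low for that length.

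Promoters of 66 members were found in the RefSeq table for GRCm38.p6 (71 windows, each 250 bases before to 50 after a transcription start). These 4 are printed, 5′ to 3′ on the gene's strand: Sdhb, Ndufs8 and Atp5g1, whose messages moved in opposite directions in vector and F133V cocultures, and Uqcrh, which rose in F133V coculture.
Sdhb, chr4:140961021-140961320, plus strand: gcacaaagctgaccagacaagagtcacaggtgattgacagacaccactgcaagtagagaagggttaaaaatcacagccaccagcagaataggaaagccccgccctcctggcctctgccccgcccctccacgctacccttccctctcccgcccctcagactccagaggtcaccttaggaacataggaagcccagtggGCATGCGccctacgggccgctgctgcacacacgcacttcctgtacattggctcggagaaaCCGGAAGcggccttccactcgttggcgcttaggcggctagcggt
Ndufs8, chr19:3912725-3913024, minus strand: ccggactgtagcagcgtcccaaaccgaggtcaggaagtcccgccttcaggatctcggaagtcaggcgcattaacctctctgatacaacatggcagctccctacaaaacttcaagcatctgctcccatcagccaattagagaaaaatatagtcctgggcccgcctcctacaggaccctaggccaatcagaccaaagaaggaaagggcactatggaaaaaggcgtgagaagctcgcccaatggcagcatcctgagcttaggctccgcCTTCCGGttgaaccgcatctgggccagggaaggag
Atp5g1, chr11:96075582-96075881, minus strand: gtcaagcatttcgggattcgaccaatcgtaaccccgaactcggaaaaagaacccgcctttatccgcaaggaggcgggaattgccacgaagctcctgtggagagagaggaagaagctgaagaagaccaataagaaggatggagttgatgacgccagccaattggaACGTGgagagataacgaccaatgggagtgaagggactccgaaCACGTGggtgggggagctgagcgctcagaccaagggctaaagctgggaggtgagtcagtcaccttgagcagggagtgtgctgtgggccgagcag
Uqcrh, chr4:116075021-116075320, minus strand: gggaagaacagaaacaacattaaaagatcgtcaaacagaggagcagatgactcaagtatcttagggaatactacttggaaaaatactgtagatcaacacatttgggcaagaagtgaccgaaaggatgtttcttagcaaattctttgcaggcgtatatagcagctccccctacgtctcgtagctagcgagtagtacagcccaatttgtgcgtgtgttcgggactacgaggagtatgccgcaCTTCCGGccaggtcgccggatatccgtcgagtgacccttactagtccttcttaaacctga
Capitals mark exact matches, on either strand, to the cores searched for factors known to act on respiratory genes: NRF1 (CGCATGC), ETS factors such as GABP (CCGGAAG), YY1 (AAGATGG), the ERR site (AAGGTCA) and the hypoxia response core (ACGTG). The Sdhb window held 1 NRF1 and 1 ETS core, the Ndufs8 and Uqcrh windows 1 ETS core each, and the Atp5g1 window 3 matches to the hypoxia core, 2 of which are the overlapping strands of 1 palindrome. The NRF1 core was present in 15.5% of 71 windows of members and 3.58% of all 32851 windows. For the ETS core the shares were 22.5% and 8.86%, for YY1 14.1% and 6.34%, for the ERR site 11.3% and 4.72%, and for the hypoxia core 23.9% and 19.6%. Among the 12819 windows of genes tested in the cancer cells, the shares were 6.19% (NRF1), 16.8% (ETS), 7.08% (YY1), 3.24% (ERR) and 25.0% (hypoxia). A match describes letters in this window and is not evidence of binding.

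In vector cells, messages of all 5 complexes were a little higher in coculture with macrophages than alone. With DMSO, 60 of 79 tested members were called higher in coculture and 2 lower, with a median log2 fold change of 0.19. Of all 15962 genes tested, 23.4% were called higher and 18.6% lower, with a median of 0.00. The summed level of complex I was 1797, 1803 and 1769 CPM in the 3 libraries alone and 2021, 1987 and 2003 in coculture, and that of complex IV 1433, 1435 and 1409.7 alone and 1641, 1598 and 1636 in coculture, without overlap in either. By complex, 29 of 37 members of complex I, 3 of 4 of complex II, 6 of 8 of complex III, 10 of 13 of complex IV and 12 of 17 of complex V were higher. In these bulk libraries fewer cells of a type and less RNA per cell cannot be told apart, and each level is a share of the RNA sequenced. The macrophage markers summed to 14.4 to 23.3 CPM in vector cells alone and 11.9 to 13.5 in coculture, and their part in the result was not tested.

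Sdhb (GRCm38, chr4:140961203-140979193, plus strand), the iron-sulphur subunit of succinate dehydrogenase, rose most among the core subunits. It stood at 119, 118 and 113 CPM alone and 165, 157 and 161 in coculture (log2 fold change 0.46, SE 0.03, adjusted p = 8.45e-15). Sdha, the flavoprotein of the same enzyme, was the exception in complex II, at 142, 142 and 141 CPM alone and 134, 133.4 and 139 in coculture (-0.07, SE 0.03, adjusted p = 0.032). Its call as lower was lost without replicate 1 or 2 of vector alone (-0.06 and -0.06) or of vector coculture (-0.06 and -0.05). Ndufs8, which carries iron-sulphur clusters of complex I, went from 42.0, 43.9 and 42.4 to 52.7, 53.3 and 51.7 CPM (0.30, SE 0.04, adjusted p = 1.72e-08). Atp5g1 (chr11:96068852-96075670, minus strand), 1 of 3 genes for the proton-carrying c subunit, went from 104, 103 and 102 to 130.1, 121 and 124 CPM (0.28, SE 0.03, adjusted p = 8.75e-10). In each of these rises the coculture libraries all lay above those grown alone. Several core subunits were not called: Ndufs1, Ndufs7, Uqcrfs1 and Atp5c1 had log2 fold changes of 0.04, -0.01, -0.01 and 0.02. With olaparib on both sides the coculture difference in vector cells called 72 members higher and 1 lower with a median of 0.27, beside 25.5% and 18.5% of all genes. Whether it differed from that with DMSO was not tested.

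**Figure D1:**
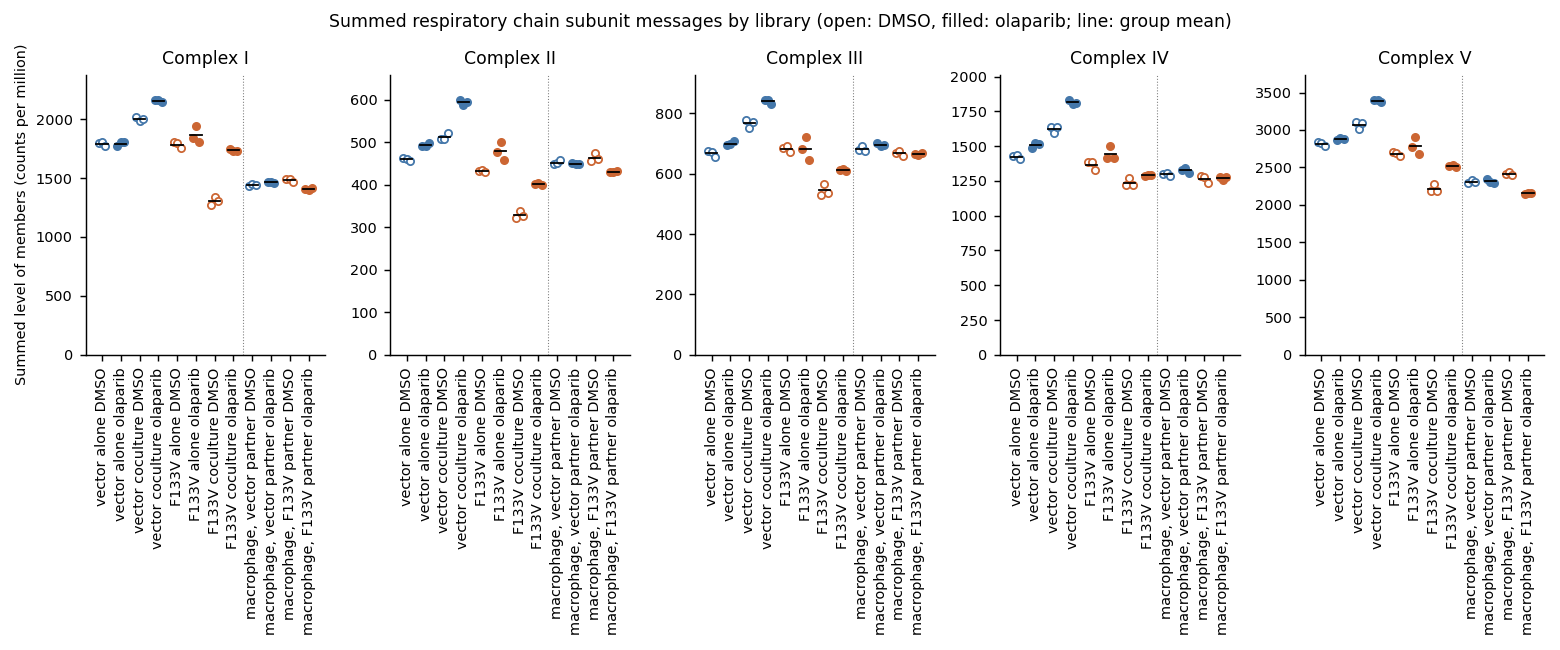
Summed level (CPM, from 0) of the members of each complex in every library, by group. Points are libraries, open for DMSO and filled for olaparib, and the line is the mean of 3; blue marks vector and orange F133V cells or partners, and macrophage groups stand right of the dotted line. Vector coculture groups are the highest in every panel and F133V coculture with DMSO is the lowest cancer cell group.

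In F133V cells the same coculture went with lower messages of all 5 complexes. With DMSO, 70 of 79 members were called lower in coculture than alone and 3 higher, with a median log2 fold change of -0.38. All genes tested were split nearly evenly, 34.8% lower and 35.6% higher, with a median of 0.01. In complex I, 36 of 37 members were lower, their median was -0.49, and their sum went from 1805, 1797 and 1754 CPM alone to 1271, 1341 and 1304 in coculture. Complex II had 4 of 4 lower (median -0.34), complex III 5 of 8 lower and 2 higher (median -0.37), complex IV 10 of 13 lower and 1 higher (median -0.18) and complex V 15 of 17 lower (median -0.32). Small structural RNAs were at 360.3 to 383 CPM alone and 395 to 422 in coculture, against 64.3 to 68.4 in vector coculture, and their part in the result was not tested.

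The difference between the genotypes was tested as an interaction of genotype and coculture, and 71 of 79 members had a lower coculture effect in F133V than in vector cells and 3 a higher one. The background for this test was 32.5% lower and 30.2% higher of all genes, and the median was -0.61 for the members and -0.01 for all genes. The coculture effects in vector and F133V cells share no library, and 57 members were called higher in the former and lower in the latter: 29 of complex I, 3 of complex II, 5 of complex III, 9 of complex IV and 11 of complex V. Of all 15962 genes tested, 1333 (8.35%) were called in these directions. With the trends of fold change on gene length and GC content removed, the interaction was called lower for 69 members and higher for 5 (32.1% and 30.4% of all genes). Library size as the only scaling gave 73 lower and 3 higher (40.6% and 22.6% of all genes).

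Sdhb went from 94.1, 91.2 and 90.7 CPM alone to 69.9, 75.5 and 70.7 in coculture in F133V cells (log2 fold change -0.35, SE 0.04, adjusted p = 5.41e-11), and its interaction was -0.82, SE 0.05, adjusted p = 2.04e-17. Sdhc, a membrane anchor of the same enzyme, went from 113, 119 and 110.3 to 62.5, 64.9 and 64.0 CPM (-0.84, SE 0.04, adjusted p = 3.32e-22). Sdhd, the other anchor, moved far less, from 82.2, 83.7 and 84.4 to 78.8, 80.1 and 77.1 CPM (-0.08, SE 0.03, adjusted p = 0.0179), a call lost with DESeq2 (-0.06) and without replicate 3 of F133V alone (-0.08) or of F133V coculture (-0.07), and with length and GC trends removed its sign turned (0.02). The 3 Sdhc libraries in coculture lay far below those alone, while the Sdhd groups were close. In complex I, Ndufv2, an iron-sulphur subunit of the NADH-oxidizing module, went from 45.2, 41.5 and 43.2 to 27.5, 26.7 and 25.9 CPM (-0.70, SE 0.04, adjusted p = 5.64e-17). Ndufs5, an accessory subunit, had the largest called fall of that complex, from 26.1, 26.4 and 25.2 to 11.6, 13.8 and 13.1 CPM (-1.01, SE 0.06, adjusted p = 1.59e-18). Ndufs1, the largest core subunit, was the member of complex I that was not called, at 114, 110.2 and 114 CPM alone and 105, 110.3 and 111 in coculture (-0.05, SE 0.03, adjusted p = 0.127), and its groups overlapped. With library size as the only scaling it was lower too (-0.26). Ndufs5 shares a stretch of at least 100 bases at 98% identity or more with another gene's transcript, so its count is less certain.

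Complex III was divided. Uqcrq and Uqcr10, small subunits, had log2 fold changes of -0.78 and -0.59, and the core protein Uqcrc1 went from 97.5, 95.8 and 93.1 to 75.2, 76.5 and 73.1 CPM (-0.35, SE 0.04, adjusted p = 4.66e-11). Its partner Uqcrc2 went the other way, from 62.4, 64.6 and 67.5 to 69.7, 77.5 and 72.7 CPM (0.18, SE 0.04, adjusted p = 6.48e-05). The Rieske iron-sulphur protein Uqcrfs1 was not called, at 72.3, 74.4 and 71.1 and 71.6, 79.7 and 73.3 CPM (0.05, SE 0.05, adjusted p = 0.385), but was lower with library size as the only scaling (-0.16) and higher with length and GC trends removed (0.15). Uqcrh (chr4:116066965-116075071, minus strand), the hinge protein that docks cytochrome c1, rose from 48.0, 49.2 and 49.7 to 63.9, 70.7 and 67.6 CPM (0.46, SE 0.04, adjusted p = 1.02e-14) without overlap, from a level less than that of vector cells, which held 102, 103 and 100.4 CPM alone and 102, 100.2 and 105 in coculture. The Uqcrc2 rise was small and turned to -0.03 on the log2 scale with library size as the only scaling.

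In complex IV most nuclear subunits fell, and modestly. Cox4i1 went from 247, 243 and 238 to 220.4, 232 and 224 CPM (-0.11, SE 0.03, adjusted p = 0.00039) and Cox5a from 117, 111 and 109 to 79.5, 82.5 and 78.8 (-0.48, SE 0.04, adjusted p = 8.93e-14). Cox6a1 (-0.49) and Cox5a (-0.48) had the largest falls of the complex. Cox7a2l, which is known for joining complexes III and IV into supercomplexes, was the called member that rose, from 153, 151 and 156 to 221, 224 and 216 CPM (0.52, SE 0.02, adjusted p = 3.41e-21). Its vector libraries were at 235, 237 and 234 CPM alone and 226, 226 and 236 in coculture, so F133V libraries lay far below vector alone and just below in coculture. Cox7a2l also shares a near-identical stretch with another gene's transcript.

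In complex V the catalytic subunits fell less than the c-subunit gene Atp5g1. Atp5b went from 888, 881 and 858 to 682, 728 and 698 CPM (-0.32, SE 0.02, adjusted p = 1.67e-14) and Atp5a1 from 429.9, 439 and 428 to 400.3, 415 and 396 CPM (-0.10, SE 0.02, adjusted p = 0.000532), the latter turning to 0.02 with length and GC trends removed. The 3 genes Atp5g1, Atp5g2 and Atp5g3 encode the same mature c subunit behind different import sequences. Atp5g1 went from 119.7, 117 and 115 to 60.8, 65.1 and 62.9 CPM (-0.90, SE 0.03, adjusted p = 2.41e-24), Atp5g2 from 61.0, 59.7 and 60.6 to 44.9, 45.1 and 45.3 (-0.42, SE 0.03, adjusted p = 3.98e-14), and Atp5g3 from 205, 197 and 199 to 182, 183 and 181 (-0.13, SE 0.04, adjusted p = 0.00095). The order of the falls was Atp5g1, Atp5g2 and Atp5g3, and in none of the 3 did the groups overlap. Among members that the symbol rule puts in complex V, Atp5s, also named coupling factor B, had the largest fall (-1.33, SE 0.12, adjusted p = 1.2e-12). Its level was low, 4.53, 5.16 and 5.22 CPM alone and 2.10, 1.78 and 2.10 in coculture. Atp5s and Atp5sl are in complex V by symbol alone, and the GENCODE annotation names Atp5sl Dmac2. Both are included in the counts and medians of complex V. Atp5g1 and Atp5g2 have near-identical stretches in 1 and 2 other genes' transcripts.

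**Figure D2:**
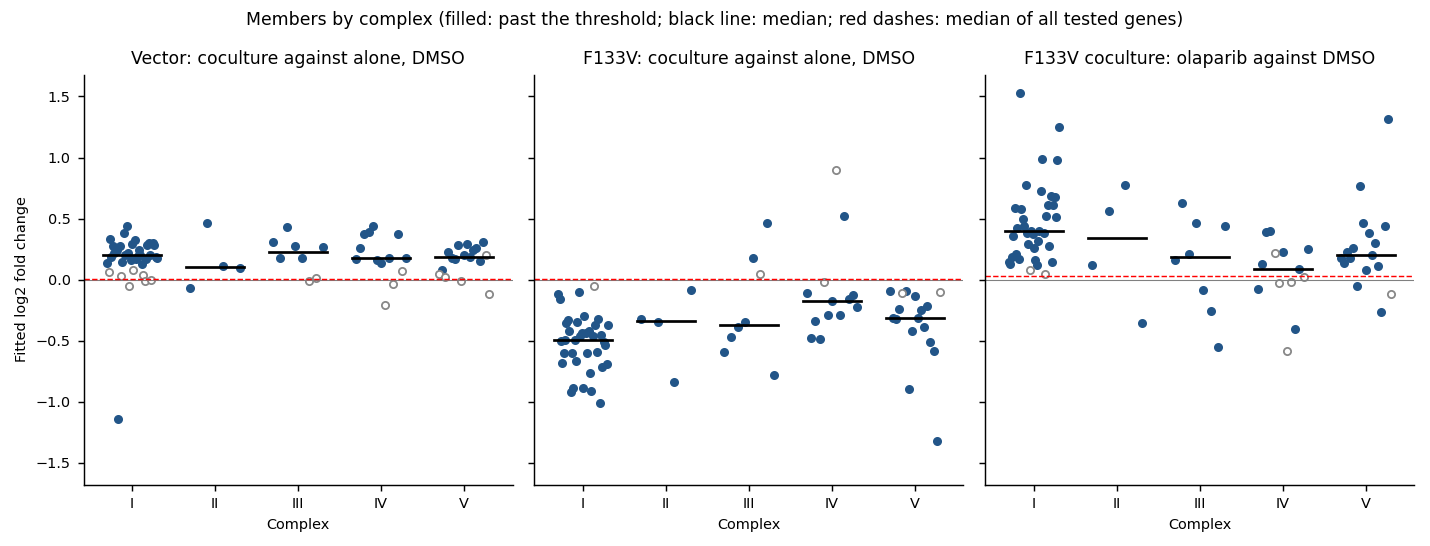
Fitted log2 fold change of each tested member by complex for coculture against alone in vector cells, the same in F133V cells, and olaparib against DMSO in F133V coculture. Filled points passed the adjusted p threshold, black lines are complex medians and red dashes the median of all tested genes; the complex I median is 0.20, -0.49 and 0.40 in the 3 panels.

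Between the genotypes grown alone there was no common direction. With DMSO, 29 of 79 members were higher in F133V than in vector cells and 23 lower, close to the 33.7% and 34% of all genes, and the median was 0.01. With olaparib the counts were 32 and 22, beside 34.3% and 33.2% of all genes, with a median of 0.01. The split depended on scaling: with DMSO, library size as the only scaling gave 18 higher and 40 lower (27.4% and 40.4% of all genes) and removal of length and GC trends gave 42 higher and 16 lower (41.9% and 27.4% of all genes), and with olaparib the latter gave 39 higher and 13 lower (42.2% and 27.1% of all genes). Single members differed strongly even so. Uqcrh stood at 102, 103 and 100.4 CPM in vector and 48.0, 49.2 and 49.7 in F133V cells (-1.05, SE 0.03, adjusted p = 1.08e-26), and Ndufv3, an accessory subunit of the NADH-oxidizing module, at 68.6, 64.1 and 63.3 and 32.7, 31.7 and 28.0 CPM (-1.08, SE 0.04, adjusted p = 2.55e-24). On the higher side, Ndufb4, an accessory subunit of the membrane arm, differed by 0.73, SE 0.07, adjusted p = 1.25e-11 and Atp5l, subunit g of the ATP synthase, by 0.59, SE 0.04, adjusted p = 6.45e-16. Atp5l has near-identical stretches in 10 other genes' transcripts and Ndufb4 in 1.

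In coculture the genotypes were apart in 1 direction. With DMSO, 73 of 79 members were lower in F133V than in vector cells and 2 higher, beside 42% and 37.4% of all genes; the median was -0.53 against -0.06. With olaparib on both sides, 68 were lower and 4 higher, beside 31.2% and 28.8%, with a median of -0.39. Ndufv3 was at 74.6, 73.3 and 74.2 CPM in vector and 24.2, 22.7 and 24.5 in F133V coculture with DMSO (-1.64, SE 0.04, adjusted p = 5.43e-30), the largest fall of that comparison in complex I. Sdhb (-1.16, SE 0.04, adjusted p = 9.68e-28) and Sdhc (-1.02, SE 0.04, adjusted p = 1.39e-25) were more than 2-fold lower, while Sdha (-0.24, SE 0.03, adjusted p = 1.07e-10) and Sdhd (-0.15, SE 0.03, adjusted p = 2.53e-05) differed little. The 2 members called higher were Ndufa4l2 and Uqcrfs1 (0.15, SE 0.05, adjusted p = 0.00335), and Uqcrc2, Cox6a2, Ndufb2 and Atp5l were not called. With library size as the only scaling Uqcrfs1 turned to -0.10, without replicate 2 of F133V coculture it was no longer called (0.09), and with length and GC trends removed Sdha and Sdhd turned to 0.01 and 0.01. These comparisons use the same coculture libraries as the coculture effects above.

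**Figure D3:**
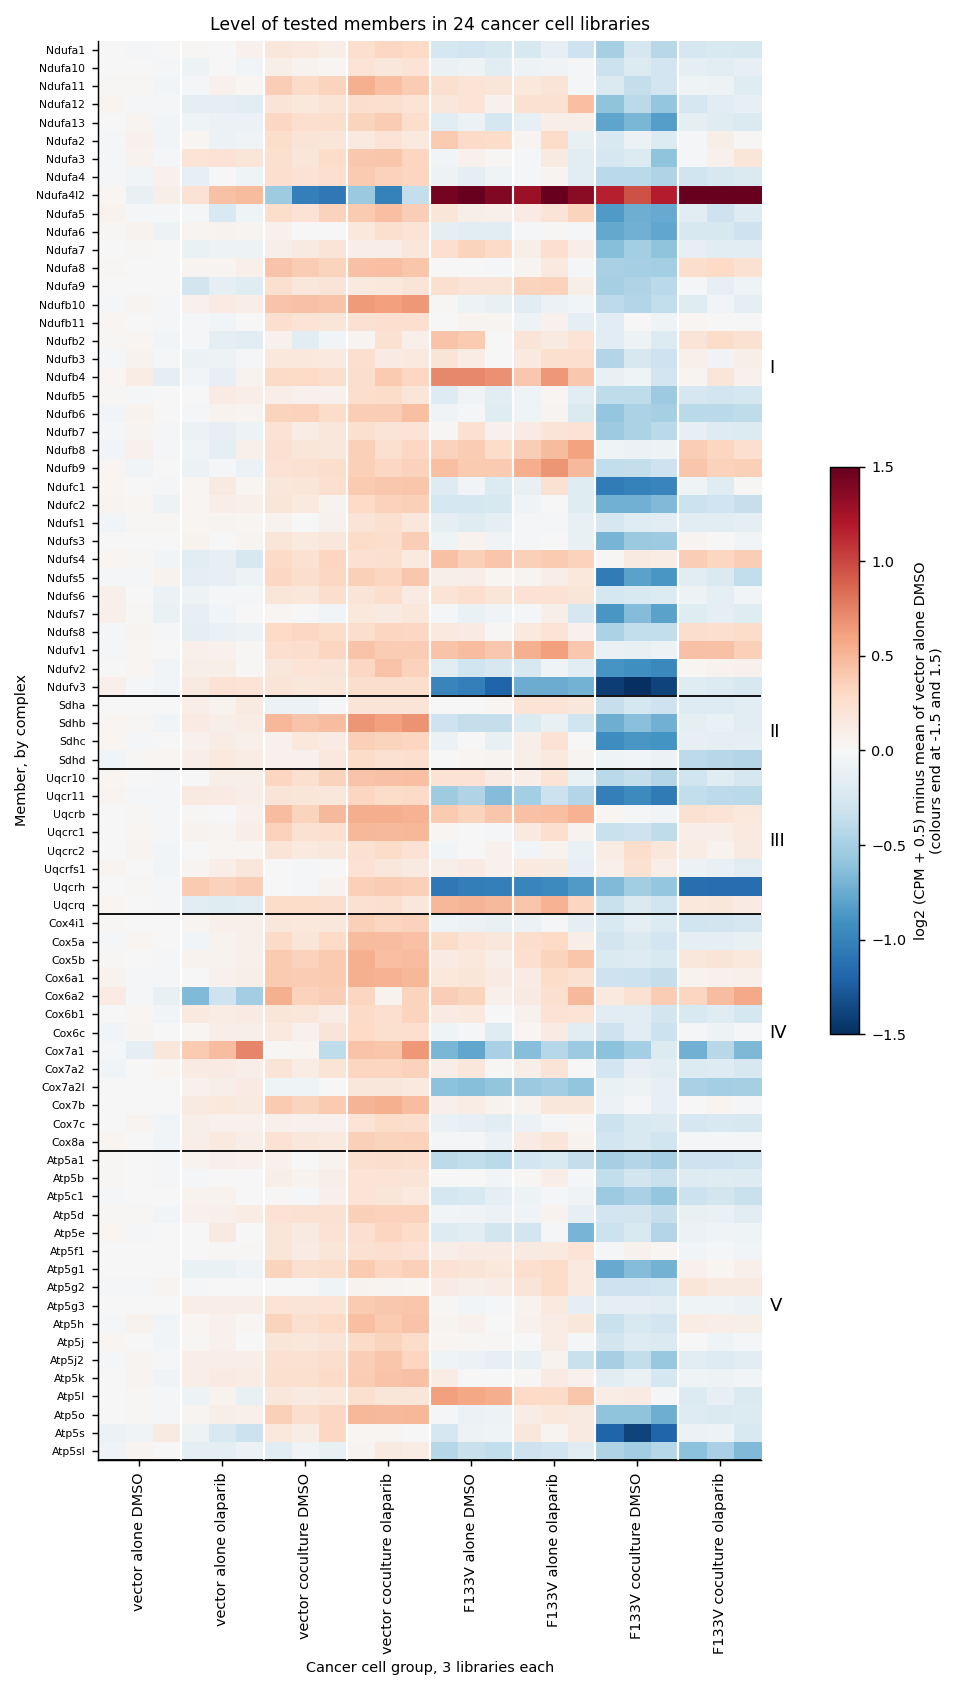
Level of the tested members, all but 1 of 79, in the 24 cancer cell libraries, as log2 (CPM + 0.5) minus the mean of vector cells alone with DMSO, ordered by complex; red is higher, blue lower, and colours end at -1.5 and 1.5. The columns of F133V coculture with DMSO are blue for most rows, and Ndufa4l2, Uqcrh, Ndufv3 and Cox7a2l stand out from their complexes.

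Of the 4 olaparib comparisons in cancer cells, the one in F133V coculture had the largest median rise of the subunits. There 63 of 79 members were higher with olaparib than with DMSO and 8 lower, with a median of 0.26, beside 39.3% and 37% of all genes and a median of 0.02. In complex I 35 of 37 were higher, in complex V 14 of 17 were higher and 2 lower, in complex III 5 of 8 higher and 3 lower, and in complex II 3 of 4 higher and 1 lower. Complex IV was the least affected, with 6 of 13 higher, 2 lower and a median of 0.08. The complex I sum went from 1271, 1341 and 1304 CPM to 1746, 1731 and 1730.1, and that of complex IV from 1223, 1272 and 1220.1 to 1286, 1295 and 1293. Small structural RNAs moved with it, from 395 to 422 CPM with DMSO to 96.9 to 102 with olaparib, and their part was not tested.

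Ndufv3 went from 24.2, 22.7 and 24.5 to 57.6, 56.6 and 55.4 CPM with olaparib (1.25, SE 0.04, adjusted p = 1.17e-25). Ndufv2 went from 27.5, 26.7 and 25.9 to 52.2, 52.8 and 53.2 CPM (0.98, SE 0.04, adjusted p = 2.05e-22) and Ndufc1, a small membrane subunit, from 9.01, 9.27 and 9.40 to 18.4, 16.9 and 19.5 (0.98, SE 0.08, adjusted p = 2.32e-14). All 3 complex I members had no overlap between the treatments. Sdhc went from 62.5, 64.9 and 64.0 to 109.9, 109 and 108 CPM (0.77, SE 0.04, adjusted p = 1.81e-21) and Sdhb from 69.9, 75.5 and 70.7 to 107, 109 and 104 (0.56, SE 0.04, adjusted p = 2.88e-17). Sdhd moved the other way, to 62.2, 61.5 and 60.6 CPM (-0.36, SE 0.03, adjusted p = 6.89e-13), so the membrane anchors of 1 enzyme diverged. Uqcrh and Cox7a2l, which had been higher in coculture, were lower with olaparib, at 46.0, 45.7 and 45.8 CPM (-0.56, SE 0.03, adjusted p = 1.88e-17) and 167, 165 and 167 CPM (-0.40, SE 0.02, adjusted p = 4.31e-18). The coculture and olaparib comparisons of F133V cells share the DMSO coculture libraries, so opposite values in them are not independent. Atp5g1 went to 107, 105 and 109 CPM (0.77, SE 0.03, adjusted p = 1.79e-22) and Atp5s to 5.11, 5.15 and 4.59 (1.32, SE 0.12, adjusted p = 6.61e-13).

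The other olaparib comparisons had smaller medians. In vector cells in coculture 50 of 79 were called higher and 0 lower by edgeR, beside 12.6% and 10.9% of all genes, and the median was 0.13. At an unadjusted p under 0.05 the lower count was 0, and DESeq2 called 0. Uqcrh was among those that rose in vector coculture, from 102, 100.2 and 105 to 130.1, 132.8 and 130.4 CPM (0.36, SE 0.03, adjusted p = 3.34e-12). In vector cells alone 20 were higher and 7 lower (background 15.3% and 15.1%, median 0.04), and in F133V cells alone 24 and 5 (background 18.2% and 17.9%, median 0.06). All 4 members of complex II were called higher with olaparib in vector cells alone and in coculture, by 0.19 for Sdhb and 0.26 for Sdha in coculture. With library size as the only scaling the splits alone were 14 higher and 12 lower (12.9% and 18.6% of all genes) in vector and 52 higher and 2 lower (28.9% and 9.84% of all genes) in F133V cells, and with length and GC trends removed 19 higher and 11 lower (13.7% and 19.2% of all genes) in vector cells. Without the 2 vector alone DMSO libraries in which the macrophage gene Lyz2 exceeded 2 CPM, the vector count alone was 8 higher and 3 lower. When only the compared groups were fitted, 41 members were called in vector cells alone and 18 in F133V cells alone. For recounts with libraries left out or only the compared groups fitted, here and below, shares of all genes were not computed. Such recounts therefore cannot tell a change in the members from a change in the calls of all genes. The interactions compare olaparib effects as signed log2 fold changes. In F133V cells the effect was higher in coculture than alone for 50 members and lower for 7 (32.9% and 31.5% of all genes). In coculture it was higher in F133V than in vector cells for 40 members and lower for 16 (35.4% and 32%). Of these, 26 and 1 were in complex I and 3 and 6 in complex IV. A lower signed effect was not always a smaller change, as Uqcrh fell with olaparib in F133V coculture. In F133V cells with olaparib on both sides, coculture went with 49 members lower and 8 higher (background 26.5% and 26.7%, median -0.17). Grown alone, the interaction of genotype and olaparib called 15 higher and 5 lower (13.3% and 10.9%). That split was 38 higher and 1 lower (26.4% and 5.53% of all genes) with library size as the only scaling, 18 higher and 3 lower (13.2% and 12.5% of all genes) with length and GC trends removed and 5 higher and 2 lower without the 2 Lyz2-holding libraries, and 13 members were called without replicate 2 of vector alone with either DMSO or olaparib. With library size as the only scaling, the split of the coculture interaction was 63 higher and 5 lower (45% and 23.3% of all genes).

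**Figure D4:**
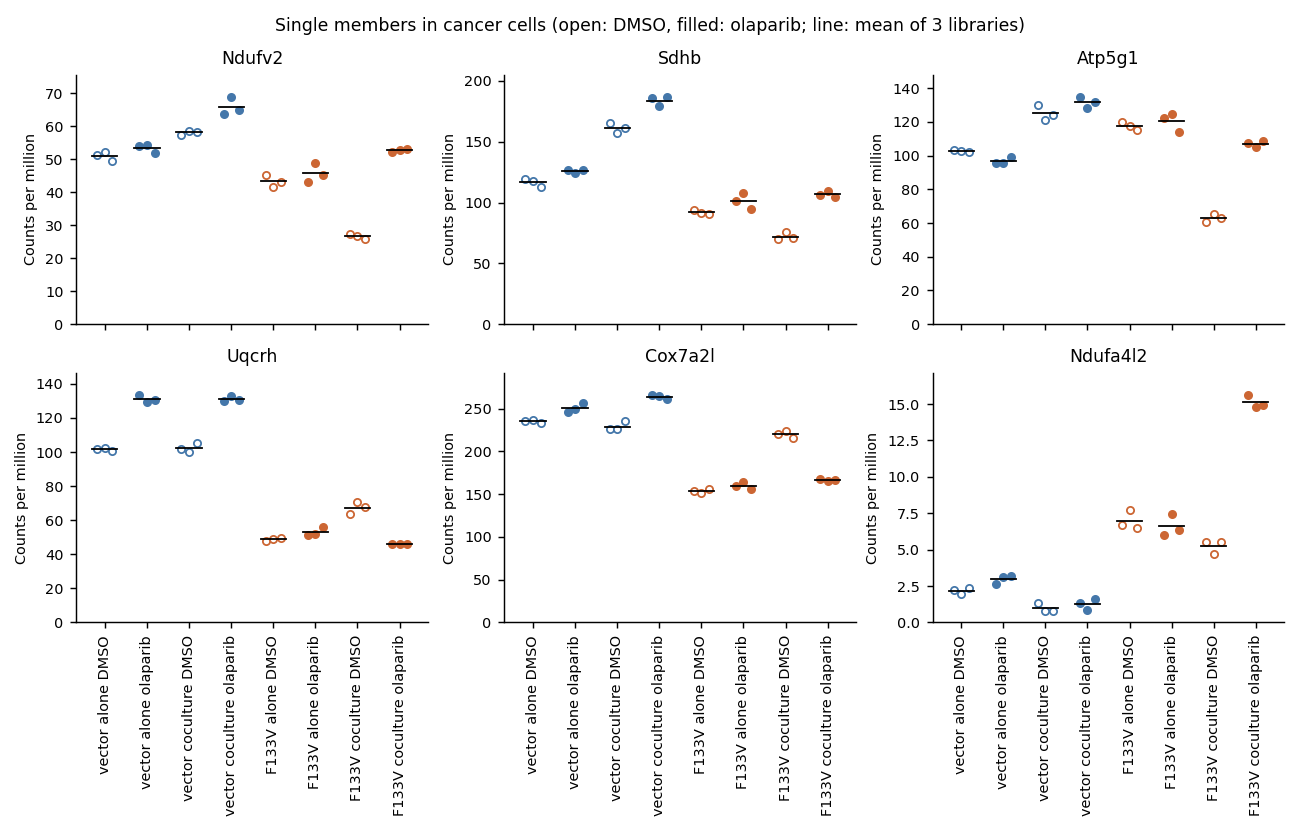
Level (CPM, from 0) of 6 members in every cancer cell library, by group; open points are DMSO, filled points olaparib and lines the means of 3. Ndufv2, Sdhb and Atp5g1 are lowest in F133V coculture with DMSO, Uqcrh and Cox7a2l are low in the other F133V groups, and Ndufa4l2 is higher in every F133V group than in every vector group.

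Ndufa4l2 (chr10:127514967-127517154, plus strand), a paralogue of Ndufa4 known to be induced at low oxygen, was higher in F133V cells in all 4 comparisons. Alone with DMSO it was at 2.22, 1.98 and 2.33 CPM in vector and 6.71, 7.71 and 6.50 in F133V cells (1.68, SE 0.13, adjusted p = 2.4e-14), and in coculture at 1.35, 0.817 and 0.769 and 5.51, 4.68 and 5.56 (2.41, SE 0.17, adjusted p = 2.66e-16). With olaparib in coculture the values were 1.32, 0.825 and 1.59 in vector and 15.6, 14.8 and 15.0 in F133V cells (3.60, SE 0.13, adjusted p = 2.62e-24). No vector library reached the level of any F133V library. Ndufa4 itself, which the symbol rule puts in complex I but which is found in complex IV, was at 76.6, 75.1 and 81.0 CPM in vector and 73.8, 70.7 and 74.3 in F133V cells alone and at 92.7, 90.1 and 92.2 and 58.2, 58.5 and 56.7 in coculture (-0.66, SE 0.04, adjusted p = 2.48e-18). Cox7a1, the heart and muscle form of subunit 7a, reached at most 1.07 CPM in a cancer cell library, with 0.748, 0.813 and 1.07 in vector and 0.108, 0.207 and 0.149 in F133V cells alone with olaparib (-2.49, SE 0.39, adjusted p = 4.46e-07), while the common form Cox7a2 was at 73.6, 73.9 and 72.7 and 71.9, 77.7 and 67.4 CPM (-0.02, SE 0.04, adjusted p = 0.653). Cox4i2, the low-oxygen form of subunit 4, had at most 0.054 CPM in any cancer cell library and was not tested there.

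The counts of other genes of the pathway are read against all genes, of which 23.4% were called higher and 18.6% lower in vector coculture and 35.6% higher and 34.8% lower in F133V coculture. Of 76 mitochondrial ribosome genes tested, 39 were higher and 2 lower in vector coculture, and 10 higher and 56 lower in F133V coculture, with medians of 0.13 and -0.33. Complex IV assembly factors (24 tested) were 8 higher in vector coculture and 5 higher and 12 lower in F133V coculture, where Coa4 had the largest change (-1.62, SE 0.14, adjusted p = 6.4e-13). Of 14 complex I assembly factors, 8 were lower and 1 higher in F133V coculture, the latter being Nubpl, which delivers iron-sulphur clusters (1.24, SE 0.08, adjusted p = 4e-16). Assembly factors of complexes II, III and V (4, 6 and 3 tested) were lower for 3, 5 and 2, and 1 of complex III, Ttc19, was higher (0.40, SE 0.05, adjusted p = 1.06e-09). The coenzyme Q synthesis genes (11 tested) were lower for 7 and higher for 3. The 13 citric acid cycle genes tested were 9 lower and 2 higher, led by fumarate hydratase, Fh1 (-1.18, SE 0.05, adjusted p = 1.87e-22). A further list outside the symbol rule held subunits and carriers beside other mitochondrial genes, such as Minos1, Chchd2, Chchd10 and Nnt. It also held Cox20, which is counted among the complex IV assembly factors too. Of its 10 genes, 7 were higher in vector coculture, and 8 were lower and 2 higher (Chchd10 and Chchd2) in F133V coculture. Among them Cycs, cytochrome c, went from 77.9, 77.0 and 77.2 to 92.4, 93.3 and 90.5 CPM in vector coculture (0.25, SE 0.03, adjusted p = 6.66e-10) and from 108, 103 and 104 to 64.8, 68.8 and 68.6 in F133V coculture (-0.64, SE 0.03, adjusted p = 6.11e-22). Of the 13 proteins encoded in mitochondrial DNA, 6 were lower and 2 higher in F133V coculture, and their summed level was 16542, 16739.7 and 17856 CPM alone and 13518, 13491 and 14322 in coculture. Alone with DMSO, 11 of these 13 were lower in F133V than in vector cells, beside 34% of all genes.

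Messages of regulators of mitochondrial genes were divided in F133V coculture. Of 15 tested, 8 were higher and 3 lower in F133V coculture, beside 35.6% and 34.8% of all genes. The 3 lower ones were Tfb1m, a mitochondrial rRNA methyltransferase (-1.24, SE 0.17, adjusted p = 2.04e-08), the transcription factor Myc (-0.39, SE 0.04, adjusted p = 3.77e-11) and Esrra, the receptor ERR-alpha (-0.12, SE 0.05, adjusted p = 0.0191). The Esrra call was lost with DESeq2 (-0.09), with relative log expression scaling (-0.09), with length and GC trends removed (-0.08), without replicate 1 (-0.09) or 2 (-0.10) of F133V alone and without replicate 2 of F133V coculture (-0.10). Ppargc1a, the coactivator PGC-1alpha, went from 145, 144 and 149 to 306, 304 and 317 CPM (1.08, SE 0.04, adjusted p = 3.33e-25) and to 108, 105 and 106 with olaparib (-1.54, SE 0.04, adjusted p = 2.69e-30). Nrf1, nuclear respiratory factor 1, went from 67.0, 65.2 and 62.9 to 114, 108 and 108 CPM (0.76, SE 0.03, adjusted p = 9.93e-23) and to 60.7, 64.0 and 62.0 with olaparib (-0.82, SE 0.03, adjusted p = 2.64e-24). Both had their highest mean in F133V coculture with DMSO, the group in which 64 of 79 tested members, and 33.7% of all genes tested, had their lowest. Tfam, which packages mitochondrial DNA, was not called in F133V coculture (0.07, SE 0.04, adjusted p = 0.108), though it was higher with DESeq2 (0.10) and lower with library size as the only scaling (-0.14). Ppargc1b, the less abundant paralogue of Ppargc1a at 4.16, 3.87 and 3.13 CPM, was not called (-0.01, SE 0.14, adjusted p = 0.96). The hypoxia-linked list (8 genes, of which Ndufa4l2 and Cox4i2 are members) was lower in F133V cells alone with DMSO for 6 of 7 tested and higher for 1, the latter being Ndufa4l2, beside 34% and 33.7% of all genes. Alone with olaparib 4 were lower and 3 higher, the latter being Ndufa4l2 (1.15), Lonp1 (0.25) and Mxi1 (0.22), beside 33.2% and 34.3%. With olaparib against DMSO in F133V coculture 7 of 7 were higher, beside 39.3% of all genes. Pdk1, which restrains pyruvate entry into the citric acid cycle, went from 114, 115 and 113 to 216, 219 and 220.5 CPM in the latter comparison (0.94, SE 0.02, adjusted p = 3.12e-30), and Higd1a, a complex IV assembly factor, from 48.2, 52.8 and 42.2 to 94.6, 94.9 and 92.0 (0.97, SE 0.05, adjusted p = 4.89e-21). The summed level of the list in F133V coculture was 1947 to 2025 CPM with DMSO and 3379 to 3447 with olaparib. In F133V cells alone with DMSO it was 1915.5 to 1972 CPM. These sums are without TMM scaling and are not compared with the TMM-scaled changes of single genes or subunits. In F133V coculture against alone with DMSO, Pdk1 (0.58), Bnip3 (0.85) and Ldha (0.37) were called higher. Lonp1 (-0.23), Mxi1 (-0.26) and Ndufa4l2 (-0.42) were called lower, and Higd1a was not called. The part of the list in the changes of the subunits was not tested.

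In the macrophages the members changed in both directions. With DMSO, 31 of 79 were higher beside F133V than beside vector cells and 18 lower (25.5% and 28.1% of 14262 genes), with a median of 0.05. With library size as the only scaling the split was 44 higher and 11 lower (32% and 22% of all genes), and with length and GC trends removed 40 higher and 12 lower (28.4% and 25.2% of all genes). With olaparib on both sides 3 were higher and 33 lower (17.6% and 17.6%), 8 higher and 10 lower (29.1% and 9.4% of all genes) with library size as the only scaling. Olaparib itself called 12 higher and 48 lower beside F133V cells (28.5% and 29%, median -0.13) and 9 and 4 beside vector cells (14% and 14.5%), the latter split being 1 higher and 26 lower (5.78% and 33.6% of all genes) with library size as the only scaling and 6 higher and 1 lower (13.3% and 12.1% of all genes) with DESeq2. The count beside vector cells was 5 without replicate 1 of the DMSO group, and 8 and 6 without replicates 2 and 3 of the olaparib group. The olaparib effect was higher beside F133V than beside vector cells for 10 members and lower for 40 (interaction; 25.7% and 23.7% of all genes). The summed level of complex V went from 2419, 2435 and 2399 CPM with DMSO to 2149.7, 2164 and 2160.0 with olaparib beside F133V cells, without overlap.

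A few members stood out. Cox4i2 (chr2:152754173-152765037, plus strand) was at 3.98, 5.11 and 4.68 CPM beside vector and 2.44, 2.26 and 1.83 beside F133V cells (-1.07, SE 0.13, adjusted p = 9.24e-10), and at 3.93, 3.88 and 4.66 beside F133V cells with olaparib (0.93, SE 0.13, adjusted p = 3.08e-08). Cox6a2 (chr7:128205435-128206387, minus strand) moved the opposite way, from 20.4, 20.6 and 19.9 beside vector to 43.4, 44.0 and 40.7 beside F133V cells (1.07, SE 0.04, adjusted p = 7.28e-27) and 25.0, 24.9 and 27.2 with olaparib (-0.73, SE 0.04, adjusted p = 4.16e-21). In both genes the F133V partner group with DMSO stood clear of the other 3 groups. Uqcrh followed Cox4i2, at 168, 170.4 and 163, 109, 111 and 108 and 163, 168 and 167 CPM in the same 3 groups (-0.61, SE 0.02, adjusted p = 3.53e-29 and then 0.61, SE 0.02, adjusted p = 4.96e-29), and Cox7a2l did so at 225, 228 and 222, 187, 186 and 183 and 239, 230.3 and 237 CPM (-0.28, SE 0.02, adjusted p = 1.24e-17). Atp5g1 followed Cox6a2, at 34.2, 37.2 and 33.9, 50.9, 48.7 and 46.7 and 31.4, 33.6 and 31.5 CPM (0.47, SE 0.04, adjusted p = 5.84e-15), while Atp5g2 was lower beside F133V cells (-0.36, SE 0.03, adjusted p = 3.21e-15). The partner and olaparib comparisons share the F133V partner libraries with DMSO. Another gene, Itgad, overlaps 10.3% of the exons of Cox6a2, and the strand mode is unknown, so the Cox6a2 count is less certain. Of 7 hypoxia-linked genes tested, Cox4i2 among them, 6 were lower beside F133V cells with DMSO and 1 higher, beside 28.1% and 25.5% of all genes, led by Bnip3 at 399, 395 and 398 and 109, 109 and 115 CPM (-1.84, SE 0.02, adjusted p = 1.73e-52). The cancer cell markers summed to 247 CPM beside vector and 157 beside F133V cells, without TMM scaling. Tpm1, with TMM scaling, stood at 242 and 148 CPM, so its share of the sums is approximate. Krt8 was at or near 0. In the cancer cells of the cocultures with DMSO, Krt8 was at 15.3 to 16.2 CPM in vector and 0.229 to 0.404 in F133V cells. It therefore cannot mark RNA of F133V cells. The part of either list in the partner differences was not tested.

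**Figure D5:**
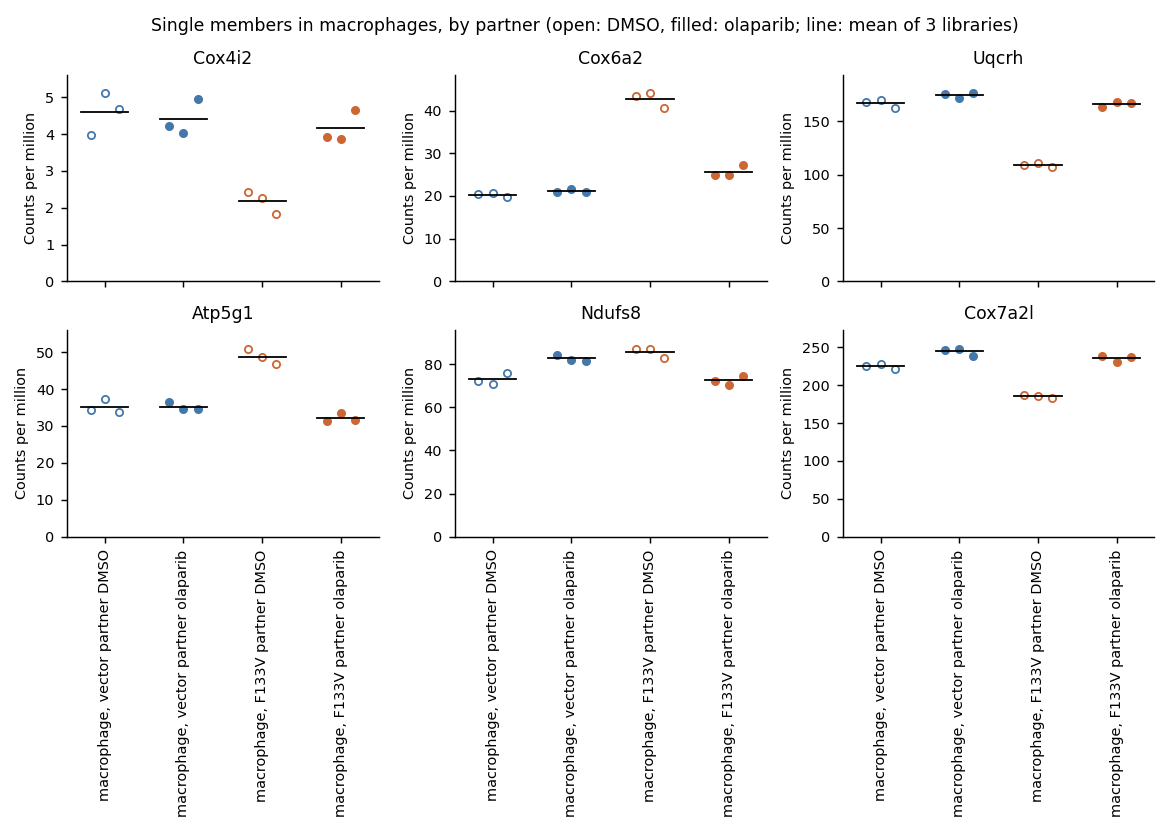
Level (CPM, from 0) of 6 members in every macrophage library, by partner and treatment; open points are DMSO, filled points olaparib and lines the means of 3. The F133V partner group with DMSO is lowest for Cox4i2, Uqcrh and Cox7a2l and highest for Cox6a2 and Atp5g1; for Ndufs8 it overlaps the vector partner group with olaparib.

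Macrophages and vector cancer cells of the same cocultures, scaled together, differed in most members. Of 80 tested, 52 were lower and 22 higher in macrophages, beside 42.4% and 39.8% of 17295 genes, with a median of -0.38 against -0.05. Complex I was lower for 29 of 37 members and higher for 5, whereas complex IV was divided, 6 of 14 lower and 6 higher. Complex II was divided within 1 enzyme: Sdhb was lower in macrophages (-1.28, SE 0.03, adjusted p = 7.75e-39) and Sdhc too (-0.54, SE 0.03, adjusted p = 6.42e-22), but Sdha (0.56, SE 0.02, adjusted p = 2.82e-28) and Sdhd (0.48, SE 0.03, adjusted p = 4.35e-22) were higher. The c-subunit genes were divided likewise, with Atp5g1 (-1.76, SE 0.04, adjusted p = 2.04e-43) and Atp5g3 (-1.16, SE 0.03, adjusted p = 4.86e-36) lower and Atp5g2 (0.52, SE 0.03, adjusted p = 6.51e-22) higher. Cox4i2 was nearly absent from cancer cells, with 0, 0 and 0.028 CPM in the vector coculture libraries, and Ndufa4l2 was lower in macrophages, at 0.216, 0.182 and 0.098 CPM. This comparison is between 2 cell lines, and the line cannot be told apart from the cell type.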

How the data were processed

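The deposited tables held raw read counts per gene for 46078 genes, 1 table per library, with 5 summary lines that name no gene. STAR, TopHat, HTSeq, DESeq2 and GRCm38 are listed without a role in the submitters' processing notes. The aligner behind the counts, software versions and strand mode were not given in the sources used here, so reads of overlapping genes (29 members overlap another gene's exons) may be miscounted. Reads outside genes were 17.1% to 21.5% of a library and were left out of totals.

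From these counts, edgeR 4.0.16 (R 4.3.3) filtered genes (filterByExpr, minimum count 10), scaled by TMM and fitted quasi-likelihood models to the cancer cells (8 groups), the macrophages (4 groups) and all libraries, over 15962, 14262 and 17295 genes, for 22 comparisons, 5 of them interactions. P-values were adjusted over all genes tested. The procedure was also run on simulated data with planted changes, the outcome of which is not given here. Alternatives included DESeq2 1.42.0, other scalings and filters, a replicate block, length and GC trends and each library left out. No pair of libraries within a group was identical. Gene positions are those of the GENCODE annotation of GRCm38.

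The members, the complexes by symbol, the gene lists and the tests were chosen with earlier results of these data known. The lists were subunits, carriers and other mitochondrial genes outside the rule, assembly factors, mitochondrial ribosome and citric acid cycle. Further lists were coenzyme Q synthesis, mitochondrially encoded proteins, regulators, hypoxia-linked genes and cell markers. Any member could be named, with preference for core subunits, alternative isoforms and the largest called changes of each complex, and from a list its called gene with the largest change and a few set genes. Ttc19 was named after its values were seen. Near-identical stretches (at least 100 bases at 98% identity) were found with BLAST 2.17.0. A member and a pair of marker genes are not reported here by name, but are included in counts, medians and sums.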

Additional observations from a re-analysis of the deposited data

Results flagged for a closer look

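Each result here is an interaction in which a test of the difference itself (edgeR, adjusted over all genes tested) called the effect of 1 factor different between 2 groups. For each interaction the number of members called is followed by the member with the smallest adjusted p in each complex, with its log2 difference of effects (effect in F133V cells or beside F133V cells minus that in or beside vector cells, unless stated otherwise).

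The coculture effect differed by genotype for 74 members, beside 30.2% of all genes called higher and 32.5% lower. The leading members were Ndufb9 (-1.01), Sdhc (-0.95), Uqcrq (-1.05), Cox6a1 (-0.88) and Atp5g1 (-1.18), all with a lower effect in F133V cells. The olaparib effect differed by genotype in coculture for 56 members, beside 35.4% of all genes called higher and 32% lower. That total is near the share of all genes. Its leading members were Ndufv3 (1.17), Sdhd (-0.51), Uqcrh (-0.92), Cox7a2l (-0.61) and Atp5g1 (0.69). Grown alone, 20 members differed, beside 13.3% of all genes called higher and 10.9% lower. This total too is near the share of all genes. The leaders were smaller: Ndufb9 (0.23), Uqcrh (-0.25), Cox6a2 (0.56) and Atp5s (0.49). Without the 2 vector alone DMSO libraries in which Lyz2 exceeded 2 CPM, Cox6a2 was at 0.45 with an adjusted p of 0.11 (edgeR).

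In F133V cells the olaparib effect differed between coculture and alone for 57 members, beside 32.9% of all genes called higher and 31.5% lower. The leading members were Ndufv2 (0.90), Sdhc (0.60), Uqcrh (-0.67), Cox7a2l (-0.46) and Atp5g1 (0.73), as coculture minus alone. In macrophages the olaparib effect differed by partner for 50 members, beside 25.7% of all genes called higher and 23.7% lower. There the leaders were Ndufs8 (-0.42), Sdhb (-0.19), Uqcrh (0.54), Cox6a2 (-0.79) and Atp5b (-0.30). These interactions share groups of libraries with each other and with the comparisons of the report.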

How the results depend on the processing

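Of 365 recounts of called members, 350 stayed within 1.5 times the reported count, and the cause of the others was not tested. These recounts take higher and lower members together, so a changed split does not show in them. The split between genotypes grown alone with DMSO, given above, changed with scaling in this way. The recounts below are given without shares of all genes, whose calls can change in the same settings. Olaparib in vector cells alone called 41 members when only its groups were fitted and 11 without the 2 vector alone DMSO libraries in which Lyz2 exceeded 2 CPM, against 27. Olaparib in F133V cells alone called 54 with library size as the only scaling and 18 when only its groups were fitted, against 29. The interaction of genotype and olaparib alone called 39, 13 and, without the Lyz2 libraries, 7, against 20, and 13 to 26 with 1 library left out. In macrophages, olaparib beside vector cells called 7 with DESeq2, 27 with library size alone and 5 to 11 with 1 library left out, against 13, and the partner comparison with olaparib called 18 with library size alone, against 36.

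Library size as the only scaling moved the median of all genes by -0.25 in the genotype comparison in coculture, by -0.21 in F133V coculture and by 0.21 for olaparib there. Relative to all genes, the members' medians were then -0.47, -0.38 and 0.23. It turned Uqcrfs1 (-0.104) in the genotype comparison in coculture, and Uqcrfs1 (-0.164), Tfam (-0.140) and Uqcrc2 (-0.0313) in F133V coculture. Removing length and GC trends turned Sdha (0.0147) and Sdhd (0.0142) between genotypes in coculture, and Atp5a1 (0.0182) and Sdhd (0.0159) in F133V coculture. With the replicate block as well, these were 0.0149, 0.0143, 0.0181 and 0.0161.

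Same-numbered libraries did not deviate together, the correlations of 84 cancer cell pairs reaching at most 0.096 and those of 18 macrophage pairs 0.038, so replicate numbers were not used as pairs. The replicate block gave 73 called members in F133V coculture and 74 in the interaction of genotype and coculture, and moved no count by more than 2. Of 160 summed levels recomputed with other scalings or per kilobase, 95 moved by more than the spread between libraries. The depth of 30292309 counts or more per library leaves members near 1 CPM, such as Cox7a1, with the widest errors.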
